A study of Microtus ochrogaster with 40 samples.

Results

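The genes described here serve the release of transmitter from synaptic vesicles, and they were chosen by name. The set takes every listed gene called Syt, Stx, Vamp, Cplx, Stxbp or Rims followed directly by a digit or a single letter, together with Snap25, Snap23, Snap29 and Snap47, Syn1 to Syn3, Sv2a to Sv2c and Unc13a to Unc13d. This rule found 63 of the 19130 genes in the files, and no measured value entered it. They are 16 synaptotagmins, 14 syntaxins, 6 Vamp genes, 4 Snap genes, 2 synapsins (Syn2 and Syn3), 3 Sv2 genes, 4 complexins, 7 syntaxin-binding proteins, 4 RIM genes and 3 Unc13 genes (Unc13a, Unc13c and Unc13d). Stx4 and Stx5 are listed as Stx4a and Stx5a. Syt8 and Cplx4 had no UMI in any class of nuclei and are not described further.

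A synaptic vesicle fuses with the plasma membrane when a SNARE protein on the vesicle, from the Vamp family, zips together with SNARE proteins of the target membrane, from the syntaxin and Snap families. Syntaxin-binding proteins of the Munc18 family hold and guide syntaxin, RIM and Unc13 (Munc13) proteins dock and prime vesicles at the active zone, complexins clamp and promote the assembled SNAREs, and synaptotagmins on the vesicle sense calcium. Synapsins tether the vesicle pool, and Sv2 proteins are glycoproteins of the vesicle membrane. Several relatives caught by the same names, among them Stx5a, Stx6, Stx7, Stx17, Vamp3 and Vamp8, are known for fusion elsewhere in the cell, in the Golgi apparatus, in endosomes or in autophagy.

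The RNA came from punches of the nucleus accumbens, a part of the ventral striatum, of 40 prairie voles (Microtus ochrogaster), a rodent known for lasting bonds between partners. Every library held the nuclei of 1 animal. Before tissue was taken, each animal had been housed for 16 days either with an opposite-sex partner (mate) or with a same-sex partner (peer), which gave 11 female mates, 8 female peers, 11 male mates and 10 male peers. All animals were paired, so there was no unpaired group, and the labels give neither the ages nor the partners of the animals. After filtering there were 178387 nuclei with 317703002 UMIs (unique molecules counted), between 2907023 and 12801698 per animal.

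Clusters of nuclei were named from marker lists with the 63 genes left out of the clustering, and a name is written "-like" where it rests on those markers alone. The 13 classes were medium spiny neuron-like nuclei of the D1 (33408 nuclei), D2 (30575) and eccentric (13392) kinds, glutamate neuron-like (32339), somatostatin interneuron-like (4632), other GABA neuron-like (5186), cholinergic interneuron-like (2406), immature neuron-like (2852), astrocyte-like (18057), oligodendrocyte-like (12124), oligodendrocyte precursor-like (5466), microglia-like (4659) and vascular-like (1491). The somatostatin-like cluster was also led by Pvalb, and no separate parvalbumin class was found. Medium spiny neurons, the output neurons of the striatum, made up 43.4% of nuclei. Clusters with 6.61% of nuclei stayed unnamed. Male mate 2 stood apart, with a median of 652 UMIs per nucleus, 42.6% glutamate neuron-like nuclei, 1.20% non-neuronal nuclei and no microglia-like ones. Male peer 5 had 0.738% glutamate neuron-like nuclei, with 52339 UMIs. Of 164425 distinct barcodes 19903 occurred in more than 1 library, and the pair of libraries that shared most had 1.525% in common. Levels are given as CPM, the counts of a gene scaled to a fixed total of the UMIs summed over the nuclei of a class in an animal, and they are compared for a gene across classes, not between genes.

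The class with the highest level differed from gene to gene, also within a family. Sv2a was highest in other GABA neuron-like, Sv2b in glutamate neuron-like and Sv2c in D2 medium spiny neuron-like nuclei. Cplx1 was highest in somatostatin interneuron-like and Cplx3 in glutamate neuron-like nuclei. Of the 61 genes with UMIs, 9 had their highest class mean in somatostatin interneuron-like nuclei, 9 in glutamate neuron-like, 6 in eccentric medium spiny neuron-like, 5 in D2, 3 in D1, 4 in other GABA neuron-like, 2 in immature neuron-like and 1 in cholinergic interneuron-like nuclei. The others were highest in microglia-like (6), vascular-like (6), oligodendrocyte-like (5), astrocyte-like (3) and oligodendrocyte precursor-like nuclei (2). For 46 of the 61 the highest class exceeded the second by less than the root of the summed variances over animals of both classes. This measure leaves out that both values come from the same animals. Some of these places are close, as for Rims2, at 193.67 CPM in oligodendrocyte precursor-like and 193.29 CPM in D1 nuclei. The heat map of class means shows 59 of the genes.

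**Figure D1:**
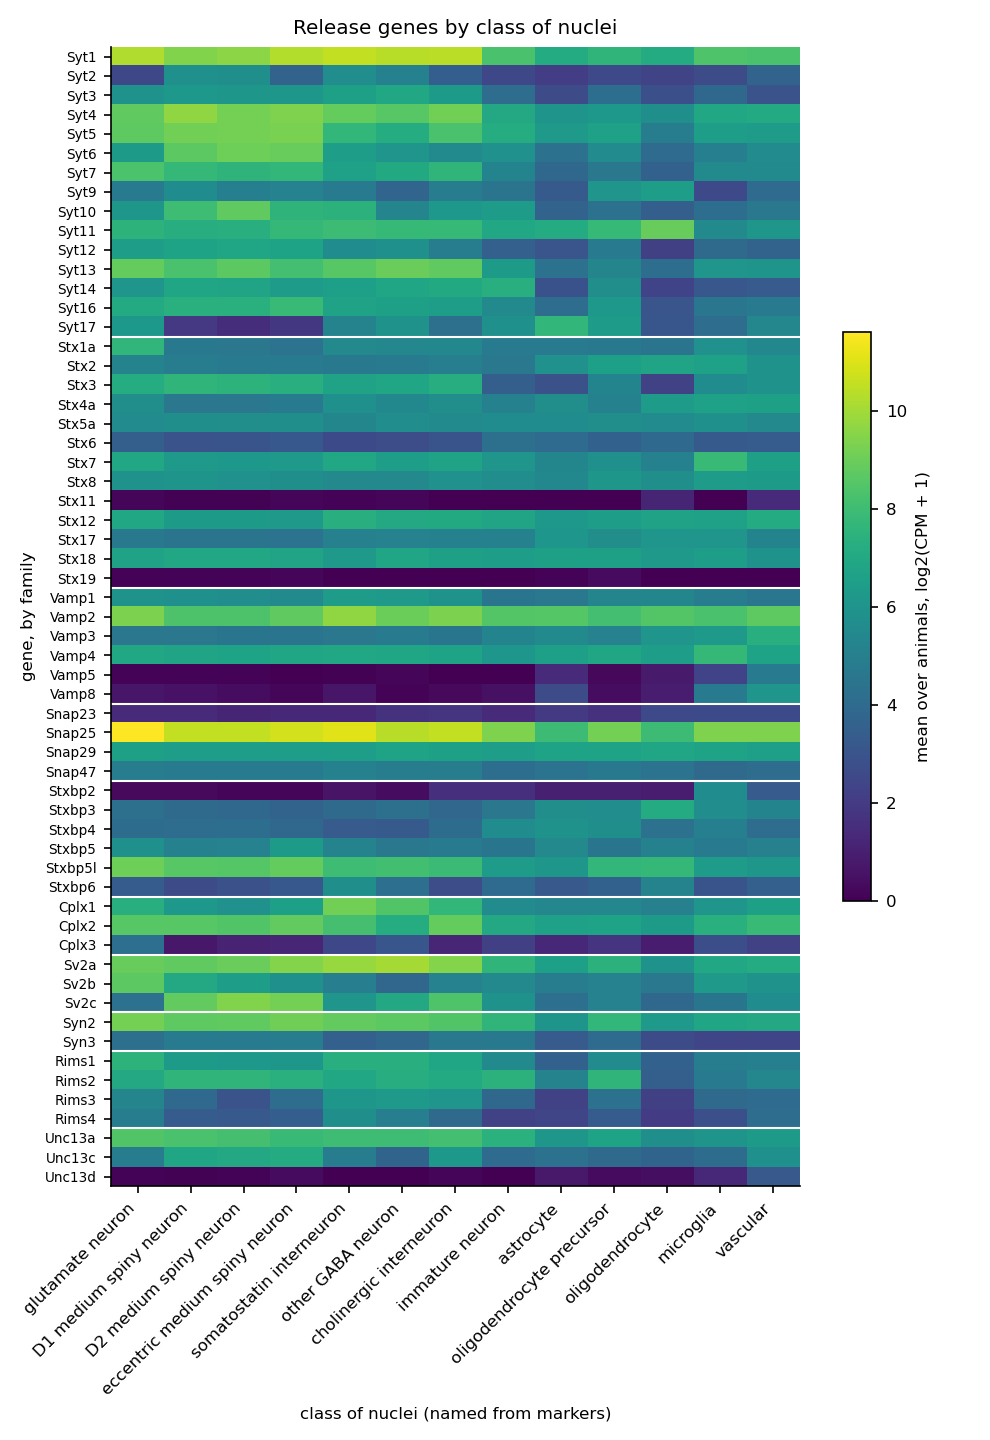
Mean level of 59 genes of the set with UMIs (rows, by family, white lines between families) in 13 classes of nuclei (columns), as log2 of the mean CPM over animals plus 1. Read along a row: Sv2c is bright in the medium spiny neuron-like columns and dark in the glutamate neuron-like column, and Stx1a is brightest in the glutamate neuron-like column.

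Neurons were first set against non-neuronal nuclei of the same animals. With edgeR's quasi-likelihood test and the animal as a block, 10558 of 11870 genes tested (88.9%) were called at a Benjamini-Hochberg adjusted p under 0.05. Of 54 tested genes of the set, 38 were higher in neurons and 13 in non-neuronal nuclei, where over all genes 44.9% and 44% were. At least 2-fold differences were called for 31 of them toward neurons, against 17.3% of all genes, and for 7 toward non-neuronal nuclei, against 19.8%. Without the filter on low counts the latter was 12 of 61 genes, and 3796 of 18013 over all genes. The median log2 difference of the set was 1.69, and that of all genes tested 0.0081. The count was the same without male mate 2.

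Sv2c, a vesicle glycoprotein known for its place in the basal ganglia, ranged from 190 to 479 CPM in neurons (median 361) and from 7.34 to 97.6 CPM in non-neuronal nuclei (median 21.4). No value overlapped, and the fitted difference was 16.4-fold (log2 4.04, SE 0.066, edgeR adjusted p 1.85e-45). Syt10 and Syt6, synaptotagmins of the calcium-binding kind, differed by a log2 value of 4.01 and 3.61, Syt5 by 2.86, Syn2, which tethers vesicles, by 2.36, and Stxbp5l, a tomosyn that limits SNARE assembly, by 1.71. Each was higher in neurons in 40 of 40 animals.

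The 13 genes higher outside neurons were the syntaxins Stx2, Stx4a, Stx6 and Stx17, Vamp3, Vamp8, Snap29, the syntaxin-binding Stxbp3, Stxbp4 and Stxbp6, and the synaptotagmins Syt9, Syt11 and Syt17. By single class, however, Stxbp6 was highest in somatostatin interneuron-like nuclei (53.6 CPM), ahead of oligodendrocyte-like ones (35.4 CPM). Syt9 was at 34.1 CPM in neurons and 37.4 CPM outside them, with the latter higher in 26 of 40 animals. Stxbp3 (Munc18c), the partner of Stx4, ranged from 8.37 to 31.2 CPM in neurons (median 14.4) and from 39.0 to 148 CPM in non-neuronal nuclei (median 70.9), 4.93-fold higher in the latter (log2 -2.30, SE 0.053, edgeR adjusted p 6.90e-39). It was highest in oligodendrocyte-like nuclei, at 140 ± 57.2 CPM (SD, n = 39), followed by astrocyte-like nuclei at 53.3 CPM. Stx2 (log2 -1.55), the cellubrevin Vamp3 (-1.47), Stx17, a SNARE of autophagosomes (-1.45), and Stx4a, a syntaxin of the plasma membrane (-0.93), were also higher in non-neuronal nuclei. Vamp8, a SNARE of endosomes and secretory granules, was at 0.45 CPM in neurons and 11.6 CPM outside them, with 65.3 ± 42.7 CPM (SD, n = 33) in vascular-like and 25.6 CPM in microglia-like nuclei. Stx7, a syntaxin of late endosomes, was highest in microglia-like nuclei at 234 ± 72.9 CPM (SD, n = 38), and so were Vamp4 at 212 CPM and Stxbp2 (Munc18-2), known from granule release in immune cells, at 48.9 CPM. Over all neurons and all non-neuronal nuclei, however, Stx7 was at 92.2 and 62.2 CPM and Vamp4 at 113 and 107 CPM. Syt11, a synaptotagmin that does not bind calcium, reached 478 ± 99.5 CPM (SD, n = 39) in oligodendrocyte-like nuclei, and 251 CPM in the next class, somatostatin interneuron-like.

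Some UMIs of neuronal genes were counted in nuclei that should lack them. Transmitter genes, which only neurons should carry, gave a gauge of this. The glutamate transporter gene Slc17a7 was at 2061 CPM in glutamate neuron-like nuclei, 102 CPM in non-neuronal nuclei and 269 CPM in microglia-like nuclei, and 4 such genes reached between 10.2% (Slc32a1) and 16.5% (Gad1) of their neuronal level in non-neuronal nuclei. Of the 55 release genes with at least 1 CPM in neurons, 13 were at or below that highest share, Sv2c (6.61%), Syt10 (6.81%), Syt13 (7.75%), Syt6 (8.42%) and Syt7 (9.17%) being lowest. The part of free RNA in their level outside neurons was not tested. Rims1 (16.8%), Syt1 (17.8%) and Snap25 (18.0%) lay just above it. A further 13 genes exceeded 100% of their neuronal level, from Syt9 (109.7%) to Syt17 (363%) and Stxbp3 (476%). Non-neuronal nuclei had 828 UMIs on average and neurons 2175.

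Glutamate neuron-like nuclei were then compared with GABA neuron-like nuclei of the same animals, the latter summed over the medium spiny, somatostatin and other GABA classes (87193 nuclei). The glutamate nuclei made up from 0.738% to 42.6% of a library. Where in or beside the nucleus accumbens a nucleus lay is not recorded. Transmitter type and place in the brain therefore cannot be told apart in this comparison. Glutamate neuron-like nuclei carried more of Stx1a, Snap25, Sv2b, Syt17 and Rims1. The GABA sum, mostly medium spiny neurons, carried more of Sv2c, Syt2, Syt6, Syt10 and Unc13c. EdgeR called 82.3% of 11413 genes, 41.2% in each direction, so that a call alone says little here. Lack of overlap between animals is given for single genes in the class comparisons, and its share over all genes was not counted. Of the 54 genes of the set tested, 29 were higher in glutamate and 19 in GABA neurons. A difference of at least 2-fold was called for 5 genes toward glutamate neurons, against 8.02% of all genes, and for 5 toward GABA neurons, against 6.9%. The median log2 difference was 0.11 in the set and 0.0014 over all genes tested. Without male mate 2 the counts were 28 and 19, and without male peer 5, left out after its values were seen, 29 and 19.

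Among the SNARE proteins themselves the largest difference was in Stx1a, the syntaxin of the presynaptic membrane. It ranged from 134 to 245 CPM over the 40 animals in glutamate neuron-like nuclei (median 197) and from 20.0 to 39.6 CPM in GABA neuron-like nuclei (median 24.7). Every animal's glutamate value lay above every GABA value, a 7.60-fold difference (log2 2.93, SE 0.037, edgeR adjusted p 1.11e-49). Snap25, the other SNARE of that membrane, ran from 2399 to 3765 CPM in glutamate (median 3176) and from 1158 to 1937 CPM in GABA nuclei (median 1574), again without overlap (log2 0.97, SE 0.019, edgeR adjusted p 8.09e-42). Vamp2, the vesicle SNARE, was higher in glutamate nuclei in 40 of 40 animals (log2 0.63), though the ranges of 404 to 1016 and 292 to 583 CPM overlapped. Vamp1, its relative, differed by 0.13 and Vamp4 by 0.09. Stx4a, at 51.8 ± 8.06 against 27.3 ± 3.65 CPM (SD, n = 40), did not overlap either (log2 0.87), and Stx7 differed by 0.56.

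**Figure D2:**
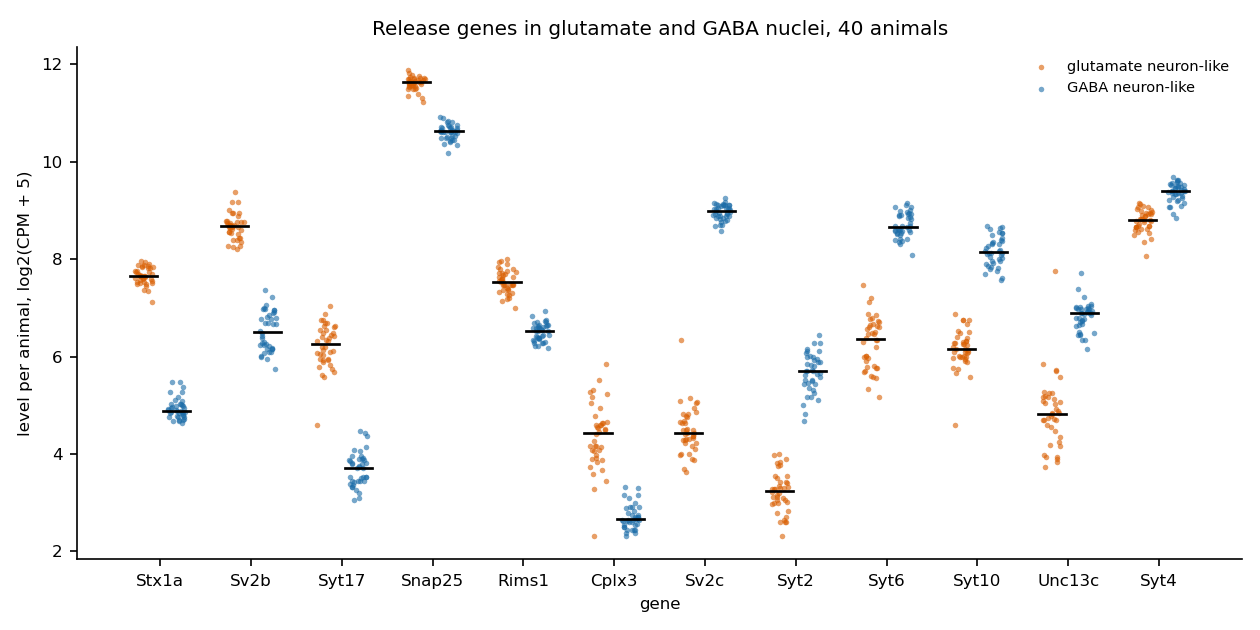
Level of 12 genes in glutamate and GABA neuron-like nuclei of the 40 animals, as log2(CPM + 5); each point is an animal and the black bar is the median. The genes on the left are higher in glutamate nuclei and those on the right in GABA nuclei. For Stx1a, Sv2b, Syt17, Snap25, Rims1, Sv2c, Syt2, Syt6 and Syt10 the 2 clouds do not overlap, and the single high glutamate point of Unc13c is male peer 5.

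Of the Sv2 genes, Sv2b was higher in glutamate and Sv2c in GABA nuclei. Sv2b ranged from 290 to 663 CPM in glutamate neuron-like nuclei (median 406) and from 48.7 to 160 CPM in GABA nuclei (median 85.6), a 4.55-fold difference (log2 2.19, SE 0.050, edgeR adjusted p 1.10e-38). Sv2c was the reverse, with 7.47 to 76.4 CPM in glutamate nuclei (median 16.7) and 379 to 611 CPM in GABA nuclei (median 501). This difference was 29.9-fold (log2 -4.90, SE 0.070, edgeR adjusted p 1.36e-47), the largest of the set in this comparison. Gad2, which glutamate neurons should lack, was at 51.6 CPM in glutamate and 974 CPM in GABA nuclei, and Slc32a1 at 20.4 and 555 CPM. The part of free RNA in the Sv2c level of glutamate nuclei, on which the fold rests, was not tested. Sv2a, the member found at most synapses, was at 475 ± 76.2 and 568 ± 71.1 CPM (SD, n = 40), a log2 difference of -0.30. Of the synapsins, Syn2 was higher in glutamate nuclei (0.37) and Syn3 in GABA nuclei (-0.45).

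The synaptotagmins, which sense calcium or lack that ability, went both ways. Syt2, a fast calcium sensor, ranged from 0 to 10.9 CPM in glutamate nuclei (median 4.51) and from 20.6 to 82.1 CPM in GABA nuclei (median 47), a log2 difference of -3.29 (SE 0.10, edgeR adjusted p 2.39e-33). Syt1, the main sensor of forebrain synapses, was instead higher in glutamate nuclei, at 1213 ± 223 against 887 ± 115 CPM (SD, n = 40; log2 0.41). Syt6 ran from 31.2 to 172 CPM in glutamate and from 269 to 564 CPM in GABA nuclei (log2 -2.50), and Syt10 from 19.1 to 112 and from 187 to 404 CPM (log2 -2.07). None of these 3 GABA-side genes overlapped between the classes. Syt4, a synaptotagmin of dense-core vesicles, was higher in GABA nuclei in 40 of 40 animals (log2 -0.63). Syt7, a slow sensor with high calcium affinity, was higher in glutamate nuclei in all 40 (320 ± 67.3 against 190 ± 37.3 CPM, log2 0.72). Syt17, which lacks calcium binding, ranged from 19.1 to 126 CPM in glutamate nuclei (median 72.1) and from 3.30 to 17.4 CPM in GABA nuclei (median 8.20; log2 3.13, SE 0.080, edgeR adjusted p 1.19e-36). It was higher still in astrocyte-like nuclei, at 205 ± 44.4 CPM (SD, n = 39), against 2.75 CPM in D1 and 1.88 CPM in D2 nuclei. The lowest glutamate values of Syt17 and Syt10, 19.1 CPM, are those of male peer 5 and rest on 1 UMI each.

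Active zone and complexin genes also differed. The RIM scaffold Rims1 was at 184 ± 31.1 CPM (SD, n = 40) in glutamate and 86.7 ± 11.6 CPM in GABA nuclei, without overlap (log2 1.05), and Rims3 and Rims4, the short RIMs, by 0.96 and 0.98. Rims2 was higher in GABA nuclei in 40 of 40 animals (-0.54). The priming factor Unc13a differed by 0.27 toward glutamate nuclei. Unc13c, a relative known from the cerebellum, was at a median of 23.4 CPM in glutamate and 114 CPM in GABA nuclei (log2 -2.26, SE 0.097), with GABA higher in 39 of 40 animals. The exception was male peer 5, with 210 CPM in its few glutamate nuclei, and without it the log2 difference was -2.27. Cplx3, a complexin known from ribbon synapses of the retina, was at 17.8 ± 10.6 CPM (SD, n = 40) in glutamate and 1.66 ± 1.23 CPM in GABA nuclei (log2 3.34, SE 0.14, edgeR adjusted p 2.31e-26). Cplx1 differed by 0.30 and Cplx2 by 0.02, which was not called. The tomosyns Stxbp5 and Stxbp5l were higher in glutamate nuclei by 0.47 and 0.49.

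**Figure D3:**
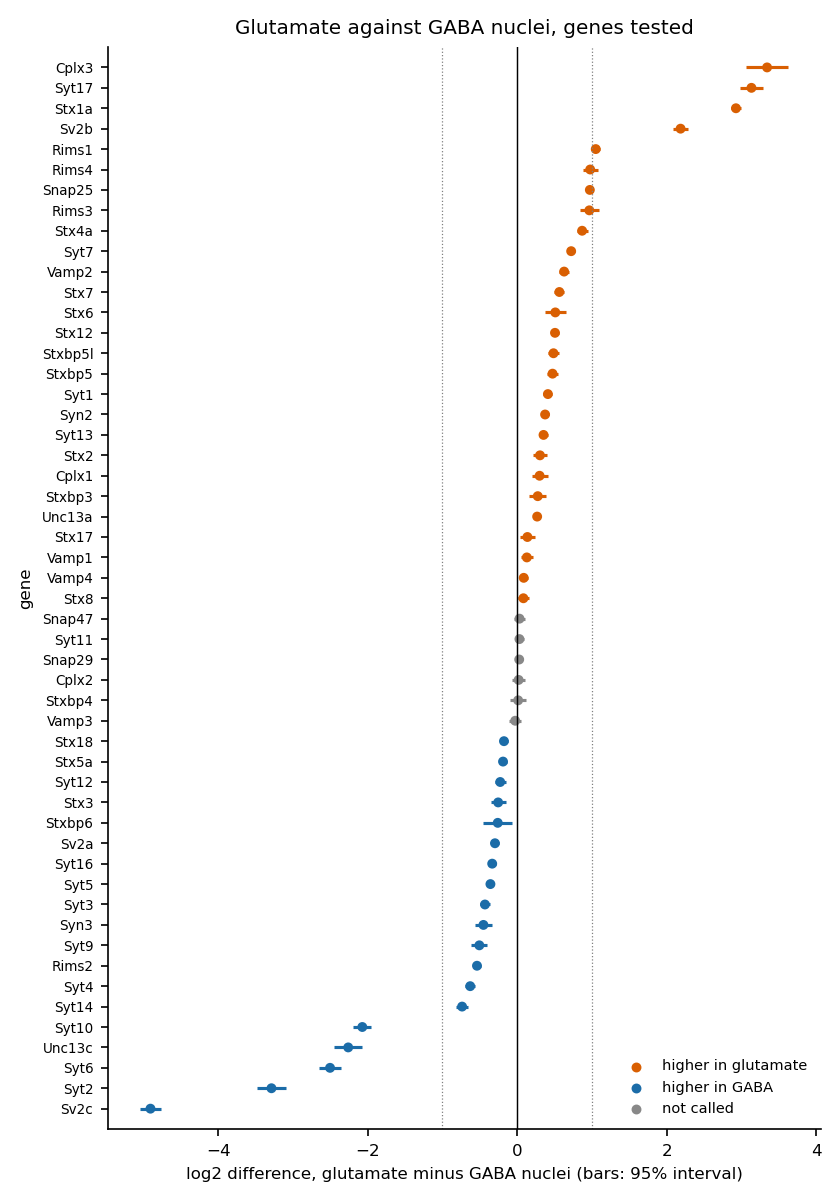
Fitted log2 difference, glutamate minus GABA neuron-like nuclei, of 52 genes tested, with bars for the 95% interval; dotted lines mark a 2-fold difference. Most genes lie between the dotted lines, with Cplx3, Syt17, Stx1a, Sv2b and Rims1 beyond the right line and Sv2c, Syt2, Syt6, Unc13c and Syt10 beyond the left.

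Not called were Snap47, Syt11, Snap29, Cplx2, Stxbp4 and Vamp3, whose log2 differences lay between -0.03 (Vamp3, 95% interval -0.11 to 0.06) and 0.03 (Snap47, -0.05 to 0.11). The 9 genes not tested for too few counts were Stx19, Syt8, Unc13d, Cplx4, Stx11, Snap23, Vamp8, Vamp5 and Stxbp2. Genes at a wider remove in the same pathway, from a list of 65 of which 59 were found, gave 36 higher in glutamate and 16 in GABA nuclei out of 56 tested, where 41.2% of all genes were called in each direction. Against somatostatin interneuron-like nuclei alone these counts were 21 and 27 of 54. Of the 56, Synj2, a phosphatase of vesicle recycling (log2 3.49), Doc2a, a calcium sensor of slower forms of release (2.28), and Bin1, which bends membranes in endocytosis (1.07), had the lowest p toward glutamate nuclei. Toward GABA nuclei these were the calcium channel subunits Cacna2d2 (-2.80) and Cacna2d3 (-1.91) and the vesicle protein synaptoporin, Synpr (-2.80).

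The choice of GABA neurons mattered. Medium spiny neurons make up most of the GABA sum, and against somatostatin interneuron-like nuclei alone 19 of 49 tested genes of the set were higher in glutamate nuclei and 23 lower, where 35.5% and 38.7% of 8659 genes were. Against medium spiny neurons alone 9 of 54 genes in place of 5 were at least 2-fold higher in glutamate nuclei, where 1113 of all 11225 genes were. The sign turned for 23 of the 49, among them Cplx1 (log2 -1.91), Rims3 (-0.89), Vamp2 (-0.45), Vamp1 (-0.44), Syt1 (-0.35) and Stx4a (-0.17). This counts the sign alone, called or not, and its share over all genes was not counted. For Sv2c the difference shrank to -2.04, for Unc13c to -0.27, for Syt17 to 1.07 and for Snap25 to 0.50. With medium spiny neurons alone Syt17 differed by 4.99. Rims1 was at 184 CPM in glutamate, 159 CPM in somatostatin interneuron-like and 161 CPM in other GABA neuron-like nuclei. Syt6 was at 78.4 CPM in glutamate and 87.6 CPM in somatostatin interneuron-like nuclei. Unc13c was at 28.9 CPM in glutamate and 12.3 CPM in other GABA neuron-like nuclei. Glutamate and somatostatin-like means stayed apart for Stx1a (199 and 43.0 CPM), Sv2b (411 and 30.7), Syt2 (4.76 and 51.6) and Syt10 (68.9 and 176).

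Glutamate neuron-like nuclei were not uniform. They came from 7 clusters, and Cplx3 was at 112 ± 71.0 CPM (SD, n = 37 animals) in cluster 32, which was led by Nxph3, Cplx3, Nxph4 and Ccn2, at 36.3 ± 14.9 CPM (SD, n = 38) in cluster 9, and at 1.09 CPM in the largest, cluster 2. Syt17 had the opposite order, at 7.64 CPM in cluster 32 and 8.20 CPM in cluster 9 but between 73.0 and 111 CPM in the other five. Stx1a was high in all of them, from 164 CPM in cluster 27 to 221 CPM in cluster 32, and Sv2b ran from 327 to 541 CPM. Male mate 2 gave 46.6% of the nuclei of cluster 27 and 25.9% of cluster 28. These cluster levels are a description, since such genes lead clusters.

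Within the GABA neurons, somatostatin interneuron-like nuclei were set against medium spiny neuron-like nuclei. EdgeR called 81.4% of 9486 genes. In the set, 22 of 51 tested genes were higher in interneurons (40.1% of all genes) and 22 in medium spiny neurons (41.3%), with 8 at least 2-fold in each direction against 9.92% and 9.77% of all genes. Cplx1, a complexin, ranged from 237 to 933 CPM in interneurons (median 556) and from 48.1 to 84.4 CPM in medium spiny neurons (median 69.5), a 7.94-fold difference without overlap (log2 2.99, SE 0.048, edgeR adjusted p 7.50e-57). Stxbp6 (amisyn, which binds syntaxin) at 53.6 against 6.25 CPM (log2 3.05) and Rims3 at 69.6 against 11.8 CPM (2.57) were similar in size. Vamp2 (1.21) and Sv2a (0.83) were higher in interneurons in 40 of 40 animals. On the other side stood Sv2c, at 66.4 ± 33.7 against 560 ± 62.2 CPM (SD, n = 40; log2 -3.07), Syt6 (-2.49), Unc13c (-2.16), Sv2b (-1.78), Syt5 (-1.53) and Syt7 (-1.04), all higher in medium spiny neurons in 40 of 40 animals.

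D1 and D2 medium spiny neurons, which carry different dopamine receptors, differed far less. EdgeR called 29.5% of 10221 genes, and in the set 12 of 52 tested genes were higher in D1 (14% of all genes) and 12 in D2 (15.5%). Without the animal as a block the counts were 6 and 6, and over all genes 5.54% and 5.99%. With the block, 1 gene higher in D1 and 0 higher in D2 differed at least 2-fold (0.626% and 0.646% of all genes). The 1 gene was Rims3, at a median of 14.3 CPM in D1 and 6.54 CPM in D2 (log2 1.07, SE 0.080, edgeR adjusted p 6.85e-21), with D1 higher in 39 of 40 animals. Syt10 ranged from 141 to 407 CPM in D1 (median 257) and from 254 to 607 CPM in D2 (median 430). The ranges overlapped between animals, but D2 was higher in each of the 40 (log2 -0.80, SE 0.024, edgeR adjusted p 2.16e-47). Sv2c (-0.61), Syt6 (-0.38) and Sv2a (-0.21) were also higher in D2 in all 40, and Syt13 (-0.38) and Syt1 (-0.19) in 39. Toward D1 lay Syt9 (0.62) and Syt4 (0.50) in all 40, Sv2b (0.50) in 39, Cplx1 (0.30) in 38 and Syt7 (0.17) in 36.

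Between animals, the level of some genes over all nuclei correlated with the share of glutamate neuron-like nuclei in the library. The glutamate neuron-like share ran from 0.738% to 42.6% (median 18.1%, second highest 28.8%). The level over all nuclei sums the glutamate nuclei with the rest. A gene that differs between the classes can therefore move with their share through that sum alone. These correlations are not independent of the class comparison above, and the part of the level within each class was not tested. Of 57 genes of the set tested over the 40 animals, 12 rose with this share (7% of all genes) and 5 fell (5.07%) by Spearman's rho at a Benjamini-Hochberg adjusted permutation p under 0.05, adjusted over all 13698 genes. By Pearson's r, 9 were positive (7.7% of all genes) and 7 negative (5.05%). Stx1a, from 22.6 CPM in male peer 5 to 120 CPM, had the highest rho of the set, 0.92 (r = 0.91, both with permutation p 1e-05, the smallest possible, and adjusted p 0.000443 and 0.000413). Without the farthest libraries, male mate 2 and male peer 5, r was 0.89, and within 4 blocks of 10 label numbers rho ran from 0.84 to 0.96. Snap25 (rho 0.79, r = 0.76, adjusted permutation p 0.000443 and 0.000413) and Syt17 (rho 0.78, r = 0.76, the same adjusted permutation p) followed, with r of 0.77 and 0.78 without those libraries and block values of rho from 0.72 to 0.81 and from 0.56 to 0.90. The genes of GABA neurons went the other way, Sv2c with rho -0.74 (r = -0.74, adjusted permutation p 0.000708 and 0.000413), Syt10 with -0.69 (r = -0.64, 0.000443 and 0.00116) and Syt6 with -0.58 (r = -0.54, 0.00318 and 0.00431). Without the same libraries their r was -0.73, -0.66 and -0.60, and within blocks rho ran from -0.90 to -0.48, from -0.95 to -0.48 and from -0.88 to -0.12.

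**Figure D4:**
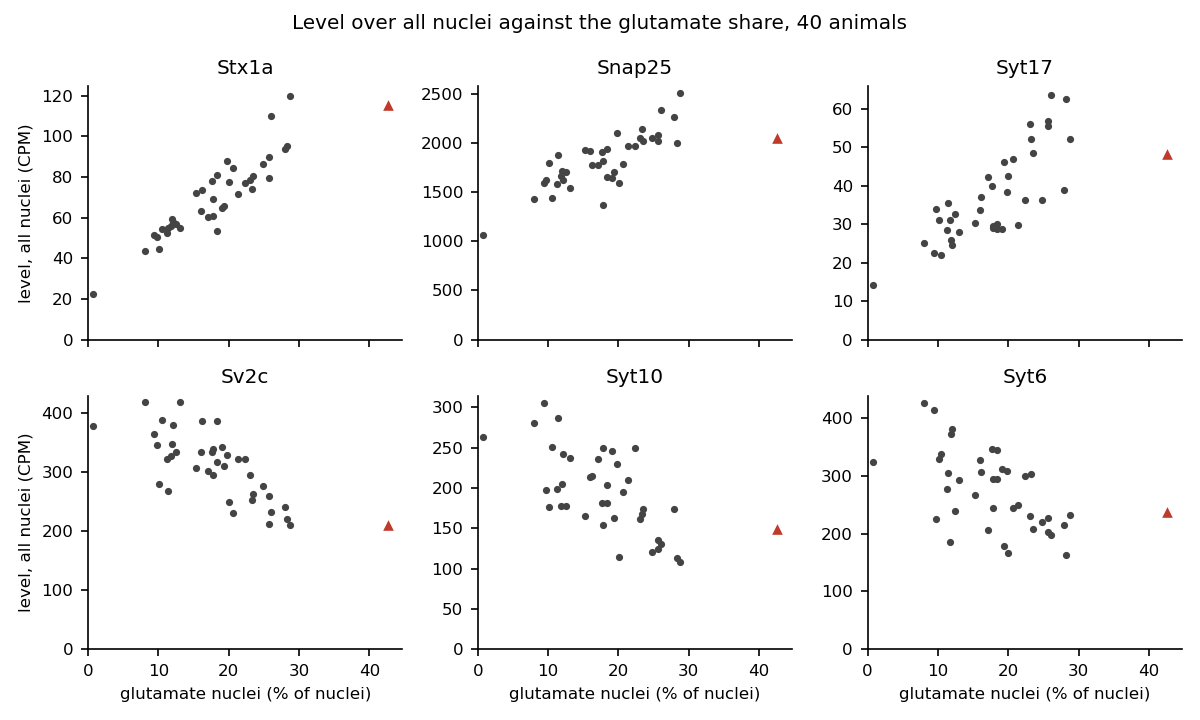
Level over all nuclei (CPM, vertical axis) against the percentage of glutamate neuron-like nuclei (horizontal axis) for 6 genes; each point is an animal and the red triangle is male mate 2. Stx1a, Snap25 and Syt17 rise with the share, and Sv2c, Syt10 and Syt6 fall.

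The median coefficient of variation over animals was 18.0% for the set over all nuclei, 16.6% in GABA nuclei and 21.7% in glutamate nuclei, where all genes had 19.0%, 18.1% and 23.5%. These values include the variance of counting. With that variance taken out the medians were 17.4%, 15.8% and 18.2% for the set and 17.2%, 15.4% and 16.5% for all genes. In microglia-like nuclei the coefficient with counting included was 58.1% for 7 genes of the set and 34.0% for all genes, and Slc17a7 at 269 CPM was counted there too. The part of free RNA in that spread was not tested.

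The level of most genes, in the set and over all genes, correlated between glutamate and GABA nuclei of the same animal, a comparison added after the data were seen. Over the 40 animals 43 of 54 genes of the set had a positive Spearman correlation between the classes at an adjusted permutation p under 0.05 and 0 a negative one, where 70.5% and 0.0789% of all 11413 genes did. The sums share a library and its free RNA, so these are not independent measurements. By the same measure the median rho was 0.545 in the set and 0.473 over all genes.

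Mates were compared with peers, females with males, and the pairing difference of females with that of males, over all nuclei, in GABA nuclei and in each of 13 classes. No gene of the set was called by edgeR in any of these, and DESeq2 also called 0. Over all genes edgeR called 0% for pairing and the interaction, and for sex 0.0219% over all nuclei, 0.0165% in GABA nuclei, 0.0179% in glutamate nuclei and 0.0253% of the tests over the 13 classes. At an unadjusted p under 0.05 there were 4, 2 and 1 of 57 genes over all nuclei (7.34%, 8.11% and 1.92% of all genes), 3, 2 and 1 of 54 in GABA nuclei (6.06%, 6.22% and 2.19%) and 2, 6 and 1 of 54 in glutamate nuclei (5.55%, 7.04% and 1.72%). Without male mate 2 the pairing count over all nuclei was 2 in place of 4, the sex count in glutamate nuclei 3 in place of 6 and that in GABA nuclei 1 in place of 2. Over all genes these counts also fell, to 762 of 13689, 656 of 11136 and 663 of 12131 in place of 1005, 786 and 756. Over the 13 classes 30, 23 and 19 of 450 tests of the set had an unadjusted p under 0.05, where 5.22%, 5.34% and 2.88% of all tests did. The lowest adjusted p of the set in a class or over all nuclei was 0.647 for pairing, 0.546 for sex and 0.99 for the interaction. In simulated data of the same design over all nuclei, 99% of pairing differences of 1.5-fold were recovered but only 23% of interactions of that size. The simulation gave every gene the same spread between animals (dispersion 0.05) and changed only genes above a minimum level. It does not cover scarcer or more variable genes, such as Snap23 and Stxbp4 below.

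For pairing the lowest p over all nuclei was that of Unc13a, which primes vesicles. It ranged from 246 to 336 CPM in female mates (median 287), from 233 to 289 in female peers (median 254), from 242 to 361 in male mates (median 284) and from 231 to 316 in male peers (median 264). All groups overlapped, and the log2 difference of mates minus peers was 0.14 (SE 0.048, p 0.00596, edgeR adjusted p 0.672). It was 0.12 in GABA and 0.13 in glutamate nuclei. Snap23 (-0.39, at 1.61 to 2.20 CPM by group) and Stxbp5l (0.11) followed over all nuclei. In GABA nuclei the lowest p was that of Stx2, with group medians of 29.0, 23.7, 32.1 and 22.7 CPM in the same order (log2 0.36, SE 0.10, p 0.00152, edgeR adjusted p 0.789), ahead of Unc13a and Rims4 (0.18). In glutamate nuclei Syt16 (-0.15) and Rims1 (0.13) came after Unc13a. None of these passed the threshold.

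For sex, Stxbp3 had the lowest p in all 3 sets of nuclei, with lower values in females. In GABA nuclei its group medians were 12.9, 12.4, 14.2 and 16.9 CPM in female mates, female peers, male mates and male peers, with overlapping ranges (log2 -0.33, SE 0.11, p 0.0061, edgeR adjusted p 0.738). Over all nuclei the log2 difference was -0.30 and in glutamate nuclei -0.41. Stxbp2 (0.60), Stx6 (0.23), Stxbp6 (0.24 in GABA nuclei) and Cplx3 (0.50 in glutamate nuclei) were among the next. For the interaction it was Stxbp4, which binds Stx4, with medians of 9.49, 16.7, 11.2 and 12.0 CPM in GABA nuclei of the 4 groups in that order. The difference of differences was -1.39 (SE 0.46, p 0.00419, edgeR adjusted p 1.00), and -0.91 over all nuclei and -1.01 in glutamate nuclei. Syt9 (0.23) and Syt6 (0.36) came next over all nuclei, Stxbp6 (-0.40) and Stx5a (-0.13) in GABA nuclei, and Syt6 (0.55) and Vamp1 (-0.25) in glutamate nuclei. The values of Stxbp4 spread widely within groups, from 6.25 to 48.4 CPM in male mates alone.

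**Figure D5:**
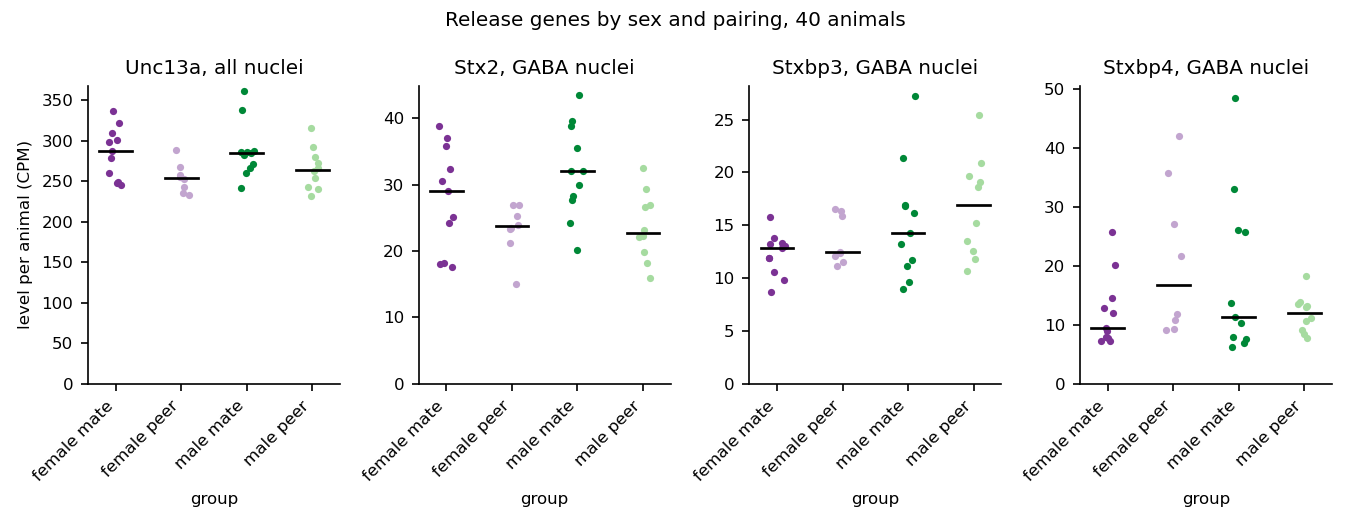
Level (CPM) of Unc13a over all nuclei and of Stx2, Stxbp3 and Stxbp4 in GABA neuron-like nuclei, by group; each point is an animal and the bar is the median. The ranges of the 4 groups overlap for every gene shown.

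One call appeared under another minimum of nuclei. When animals needed at least 50 microglia-like nuclei in place of 20, Syn2 was called for pairing in that class (log2 1.12, SE 0.23, n = 36, edgeR adjusted p 0.0498), the 1 call among 3231 genes (0.031%). At an unadjusted p under 0.05 there were 8 of 20 genes of the set, all 8 higher in mates, and 10 of 23 other pathway genes, where 13.3% of all genes were. The median log2 difference was 0.48 in the set and -0.0091 over all genes. With the minimum of 20 there were 3 of 19 genes of the set and 6 of 22 other pathway genes at that p, and 230 of all 3144 genes. There the median was 0.30 in the set and -0.0075 over all genes, and Syn2 differed by 0.71 (SE 0.28, n = 38, edgeR adjusted p 0.673). Syn2 was at 113 CPM in microglia-like and 493 CPM in neuronal nuclei, and Slc17a7 at 269 and 638 CPM. The part of free RNA in this difference was not tested.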

How the data were processed

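Single-nucleus libraries were prepared with the 10X Genomics method, per the labels' protocols. The authors deposited unnormalised UMI counts for every gene in every barcode, made with Cell Ranger 3.1.0 per the submitters' processing notes. The genome build, annotation and aligner settings are not given in the sources used here. The genes and lists were chosen with earlier results of these data known. Of the 63 symbols 61 were found in RefSeq (MicOch1.0, names only), and 4 Sytl genes were left out.

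Of 194518 barcodes, 6375 under 500 UMIs and 2148 over 5% mitochondrial UMIs were removed, and 7608 doublets (4.09%) were removed at an assumed rate of 0.8% per 1000 barcodes. All 6375 came from male mate 2, whose 12519 barcodes went down to 206 UMIs. No other library held a barcode under 500 UMIs. Scanpy 1.11.5 clustered 30 components (2000 variable genes, without the genes of the set, 15 neighbours) at resolution 3, chosen after resolution 1 had merged classes and before any comparison. The 41 clusters were named from 17 marker lists (144 of 157 genes found). Naming took 3 or more markers raised by a log2 value of 1, and 7 clusters stayed unnamed.

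UMIs were summed per animal and class with at least 20 nuclei. EdgeR 4.0.16 (R 4.3.3; TMM factors, filterByExpr, adjusted p under 0.05) tested all genes together; DESeq2 1.42.0 was an alternative. Both sums of a class comparison come from the same animal, so the animal was a block. Over 7547 genes their deviations correlated with a median r of 0.553, above 0.1 in 40 of 40 animals. Between-group fits had 1 mean for each of the 4 groups. Animals that shared a cage may not be independent. Correlations used 100000 permutations, and plots a pseudocount of 5 CPM. In simulated data with a dispersion of 0.05 for every gene, 100% of 1.5-fold glutamate to GABA differences were recovered, among genes above a minimum level. Free RNA and barcodes shared between libraries were not corrected for.

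In each class comparison up to 6 called genes per direction with the lowest p were named, for pairing, sex and interaction the 3 with the lowest p per set of nuclei, and for the glutamate share the 3 highest and lowest rho; a fixed core of common release genes was also named, and other genes were chosen after their values were seen. Of the set, 2 genes stay in every fit and count but are not reported here by name.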

Additional observations from a re-analysis of the deposited data

Results flagged for a closer look

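In female peers (8) and male peers (10), 170 sets of values were checked for an animal far from the rest, which 17 of them held, where chance gives about 5%. The sets were the genes named between glutamate and GABA nuclei (in both), for the glutamate share (over all nuclei) and for pairing, sex and interaction (in the nuclei named there). The mate groups, of 11 animals each, were not searched.

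Of the 17, 9 were in glutamate nuclei of male peer 5, which had 0.738% glutamate neuron-like nuclei and 52339 UMIs in them, so that each value rests on 0 to 11 UMIs. Unc13c, a priming factor, was at 210 CPM there from 11 UMIs, and the next male peer was at 29.8 CPM. Sv2c was at 76.4 CPM from 4 UMIs (next 24.3 CPM), Vamp4 at 210 CPM from 11 (next 141 CPM) and Syt16, a synaptotagmin without calcium binding, at 191 CPM from 10 (next 145 CPM). Stxbp4 (next 18.0 CPM) and Vamp3 (next 29.0 CPM) were each at 38.2 CPM from 2 UMIs. Stxbp6 was at 19.1 CPM from 1 UMI (next 12.8 CPM). Lower than the rest were Vamp1, at 19.1 CPM from 1 UMI (next 43.8 CPM), and Syn3, at 0 CPM from 0 UMIs (next 12.3 CPM). The part of low depth in these values was not tested.

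The other values rest on more UMIs. In glutamate nuclei Cplx1 was at 253 CPM in male peer 10 (680 UMIs, next 178 CPM) and Vamp3 at 33.9 CPM in female peer 5 (50 UMIs, next 23.6 CPM). In GABA nuclei male peer 8 had Cplx1 at 189 CPM (747 UMIs, next 144 CPM) and Cplx3 at 4.81 CPM (19 UMIs, next 2.51 CPM). Male peer 1 had Stx5a, a SNARE of the Golgi apparatus, at 60.3 CPM (76 UMIs, next 51.7 CPM) and Syt17 at 16.7 CPM (21 UMIs, next 10.6 CPM) there. Unc13c was at 205 CPM in male peer 9 (580 UMIs, next 144 CPM), and Stx4a at 36.3 CPM in female peer 2 (129 UMIs, next 28.6 CPM).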

How the results depend on the processing

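The numbers of genes of the set called, and of the other pathway genes between glutamate and GABA nuclei, stayed within 1.5 times of those reported in 225 repeats with another normalization, filter, tool, clustering, doublet rule, set of libraries or definition of GABA neurons. The 9 exceptions were, against somatostatin interneuron-like nuclei alone, 19 genes of the set higher in glutamate nuclei and 21 and 27 other pathway genes higher in glutamate and GABA nuclei; against medium spiny neurons alone, 9 genes at least 2-fold higher in glutamate nuclei; without the filter on low counts, 12 genes at least 2-fold higher in non-neuronal nuclei, where more genes were tested; D1 against D2 nuclei without the replicate block (12 genes called, 6 in each direction, and 1178 of all genes); and pairing with at least 50 nuclei (1 gene, Syn2 in microglia-like nuclei). There the other pathway genes called without the block were 7 and 4 in place of 17 and 17, and the block changed no other of these counts by that much. Over all genes, those at least 2-fold apart rose without the filter, where more genes were tested, from 915 and 788 to 1765 and 1417 (glutamate, GABA), from 941 and 927 to 2168 and 2008 (interneurons, medium spiny neurons), from 64 and 66 to 148 and 121 (D1, D2) and from 2056 and 2347 to 3327 and 3796 (neurons, non-neuronal), and against somatostatin interneuron-like nuclei they were 586 and 425. The 3796 were among 18013 genes tested, beside the 12 of 61 of the set. Against medium spiny neurons alone 1113 of all 11225 genes were at least 2-fold higher in glutamate nuclei, beside the 9 of 54 of the set. For sex DESeq2 called 5 genes in place of 2 in GABA nuclei, and in glutamate nuclei 1 in place of 2 was called without the filter, without male peer 5 or, which leaves out the same animal, with at least 50 nuclei. Over the classes the calls without the filter were 12, 37 and 4 for pairing, sex and interaction in place of 0, 22 and 0, and DESeq2 called 1 interaction. Genes of the set at an unadjusted p under 0.05 were 2 in place of 6 for sex in glutamate nuclei, 1 in place of 2 for sex in GABA nuclei, 1 in place of 2 for pairing and 0 in place of 1 for the interaction in glutamate nuclei with blocks of label numbers, and 11 in place of 19 for the interaction over the classes with at least 50 nuclei, where fewer classes were run. With those blocks the counts over all genes were 521, 638, 486 and 176 in place of 786, 756, 619 and 192. Without the filter the genes of the set at that p were 49, 45 and 38 in place of 30, 23 and 19 over the classes, and 5 and 2 in place of 3 and 1 for pairing and interaction in GABA nuclei. The counts over all genes there were 10803, 10848 and 8112 in place of 4546, 4649 and 2503, and 1033 and 518 in place of 736 and 266. For single genes 617 repeats kept direction and call, 14 turned in sign, 6 lost and 1 gained a call. Against somatostatin interneuron-like nuclei the sign turned for 23 of 49 genes of the set, called or not. The share over all genes was not counted there. Among the genes repeated singly the sign turned for Cplx1 (-1.91), Rims2 (0.0000), Rims3 (-0.89), Stx4a (-0.17), Stx7 (-0.093), Syt1 (-0.35), Vamp1 (-0.44), Vamp2 (-0.45) and Vamp4 (-0.010). Cplx2, not called in the main test, was at -0.0013 with DESeq2, -0.015 without the filter, -0.089 against medium spiny neurons and -0.065 without other GABA neurons, and Stxbp6 was at 0.43 against medium spiny neurons. Other causes were not tested. Without male mate 2 the genes of the set called with the glutamate share by Pearson's r were 20 of 57 in place of 16. The share over all genes was not counted in that repeat. In vascular, cholinergic and immature neuron-like nuclei a group kept fewer than 6 animals with 50 nuclei, the minimum set for the test, so it was not run there. Depth limits the rarer classes, where 1491 vascular-like nuclei carried 2233316 UMIs.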

Other observations

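Stxbp4 varied most between animals among the tested genes of the set called in neither direction between glutamate and GABA nuclei. It ran from 6.25 CPM in male mate 2 to 48.4 CPM in male mate 7 in GABA nuclei and from 4.36 CPM in male mate 9 to 50.7 CPM in male mate 7 in glutamate nuclei (correlation between the classes over the 40 animals, rho 0.85, r = 0.85, permutation p 1e-05 for both, the smallest possible, adjusted p 5.2e-05 and 4.6e-05; r = 0.77 without the farthest animals). Its coefficient of variation was 65.9% in GABA nuclei, of which counting alone gives 13.0%, and 24.6% in astrocyte-like nuclei, where counting gives 22.2%. Syt7 (rho 0.86) and Snap29 (rho 0.82) were also alike between the classes, while Sv2c (rho -0.16) was not.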
